A study of Oryzias latipes with 8 samples.

Results

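The SOX transcription factor family was followed across 3 populations of sorted cells from the optic tectum, the main visual area of the midbrain, in medaka (Oryzias latipes) aged 1 month. Members were the genes whose name in the authors' sheets of changed genes, in lower case, starts with "sox" and a digit. This gave 8 genes among the 15640 genes tested, and all 8 passed the filter on low counts. They were SOX2 (ENSORLG00000001780), a second gene named SOX2 (ENSORLG00000011685), SOX11 (ENSORLG00000014996), SOX4 (ENSORLG00000005001), SOX6B (ENSORLG00000006705), SOX13 (ENSORLG00000012066), sox9b (ENSORLG00000007960) and SOX8 (ENSORLG00000007994). The SOX2 genes are written below as SOX2-1780 and SOX2-11685, after the ends of their identifiers. The authors pair SOX2-11685 with the human SOX2 gene. They pair SOX2-1780 with a human gene that another of their sheets names SOX3, a close relative of SOX2. RefSeq names 2 genes of this species sox2 and none sox3, but its genes could not be matched to these identifiers. SOX2-1780 is therefore called here by its identifier, and its name is left as uncertain. A gene carries a name in the sheets only because the authors listed it as changed in these libraries, so the number of members that pass a test here is not independent evidence. Of 17 genes that RefSeq names sox and a digit in this species, 9 (sox1, sox5, sox6a, sox7, sox10, sox14, sox17, sox18 and sox21) have no counterpart of that name in the sheets and were not analysed here.

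SOX proteins bind DNA through an HMG box related to that of the sex-determining factor SRY, and they act with partner factors, POU proteins among them. Family members are grouped by sequence. SOXB1 proteins such as SOX2 and SOX3 keep neural progenitors undifferentiated, SOXC proteins such as SOX4 and SOX11 act in cells that are becoming neurons, SOXD proteins such as SOX6 and SOX13 lack an activation domain and modulate other SOX factors, and SOXE proteins such as SOX8 and SOX9 act in glia and neural crest. These roles come mostly from mouse, chick and zebrafish. In the tectum of teleost fish, growth continues after hatching from neuroepithelial cells at the tectal margin, and the young neurons they give rise to come to lie beside them.

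RNA was sequenced in 8 libraries, and the fish carried one of a pair of GFP reporter lines. In the Wdr12:GFP line the promoter of wdr12, a ribosome biogenesis gene, drives GFP in tectal neuroepithelial cells, and both its GFP-positive cells (n = 3, written wdr12+ below) and its GFP-negative cells (n = 2, written wdr12-) were collected. The wdr12- cells are described by the submitters as a mixture of amplifying progenitors, neurons and glia. In the ebf3:GFP line the label is carried by progenitors that no longer divide and by differentiated neurons, and its GFP-positive cells (n = 3, written ebf3+) were collected. The labels name no treatment, and the age was 1 month in all groups. Per the labels' protocols, 30 tecta were dissociated together, cells were sorted by flow cytometry, and 4 ng of RNA went into each library, so each library averages over many fish. The labels do not say whether replicates are separate pools of fish, so the p-values below speak for the scatter among these libraries, part or all of which may be technical.

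Library totals were 8511255 to 11580629 counts for wdr12+, 3497101 to 5798458 for wdr12- and 5247836 to 7708019 for ebf3+ cells. Markers were summed as CPM, counts scaled to a common library total, after TMM scaling, a correction for library composition. The 21 proliferation markers summed to 5771 to 12300 CPM in wdr12+ libraries, 431.9 to 589.5 in wdr12- and 676.8 to 840.3 in ebf3+ libraries. The 19 neuronal markers summed to 1719 to 2842, 4516 to 5491 and 5172 to 6701 CPM in the same order. The reporter genes went with their labels: wdr12 averaged 70.1 CPM in wdr12+ against 23.6 in wdr12- and 23.3 in ebf3+ cells, and ebf3 averaged 2524 CPM in ebf3+ against 406 and 659 in wdr12+ and wdr12- cells. The 8 markers of tectum and midbrain were present in every library, at 517.4 to 1261 CPM in sum. Markers of other cell types were also present. The 11 microglia markers summed to 834.8 to 1493 CPM in wdr12+, 805.2 to 912.9 in wdr12- and 92.7 to 273.8 in ebf3+ libraries. Of these sums, apoeb alone made up 747, 249 and 73.0 CPM on average. It was the 1 marker of the 11 that was higher in wdr12+ than in wdr12- cells by the test described below, and the other 10 did not pass. The 5 fibroblast markers summed to 101.8 to 462, 114.7 to 120.1 and 15.2 to 44.4 CPM in the same order. The 7 endothelial and mural markers summed to 425.2 to 531.2, 171.7 to 205.9 and 137.8 to 155.6 CPM. In wdr12+ cells that sum came mostly from notch3 and cldn5a, with means of 205 and 149 CPM. By the test described below, these 2 of the 7 were higher in wdr12+ than in wdr12- cells, 1 was lower and 4 did not pass. The lower gene, cdh5, averaged 7.45, 45.0 and 79.6 CPM in wdr12+, wdr12- and ebf3+ cells. The purity of the sorts was not tested. A pair of features of single libraries or groups touches the results below. Haemoglobin genes took 4.27% and 15.7% of the counts of wdr12- replicates 1 and 2, and at most 0.117% in any other library. With these 5 genes left out of the library totals, the members that passed numbered 4, 6 and 4 in the 3 comparisons, the same as with them. Among ebf3+ libraries, replicate 3 held 824.3 CPM of the 11 oligodendrocyte markers and 273.8 CPM of the 11 microglia markers, against 210.6 to 283.7 and 92.7 to 125.9 CPM in replicates 1 and 2.

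The first comparison asks how the wdr12+ sort differs from the remaining tectal cells, and the second how it differs from ebf3+ cells. The third asks how these controls differ from each other. Each comparison was tested with edgeR's quasi-likelihood test over all genes. A gene was said to change at a Benjamini-Hochberg adjusted p under 0.05. Between wdr12+ and wdr12- cells, 4 members were higher in the GFP-positive cells, 0 were lower and 4 did not pass. Of all genes tested, 9.92% were higher and 9.84% lower in this comparison, and of the 4658 tested genes that the sheets name, 29.9% and 30.7%. Against ebf3+ cells, 5 members were higher in wdr12+ cells, 1 was lower and 2 did not pass, where 12.7% of all genes were higher and 10.8% lower, and 37.9% and 31.8% of named genes. Between wdr12- and ebf3+ cells, 1 member was higher, 3 were lower in the GFP-negative cells and 4 did not pass, where 3.16% of all genes were higher and 1.96% lower, and 9.27% and 6.18% of named genes. The comparisons share groups and are not independent of each other. The median log2 fold change of the 8 members was 1.58, 2.48 and -0.03 in this order, against 0.05, 0.01 and 0.01 over all genes tested. Over the genes that the sheets name, it was 0.31, 0.28 and 0.19. Since these are bulk samples, fewer cells of a type and less RNA per cell cannot be told apart.

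**Figure D1:**
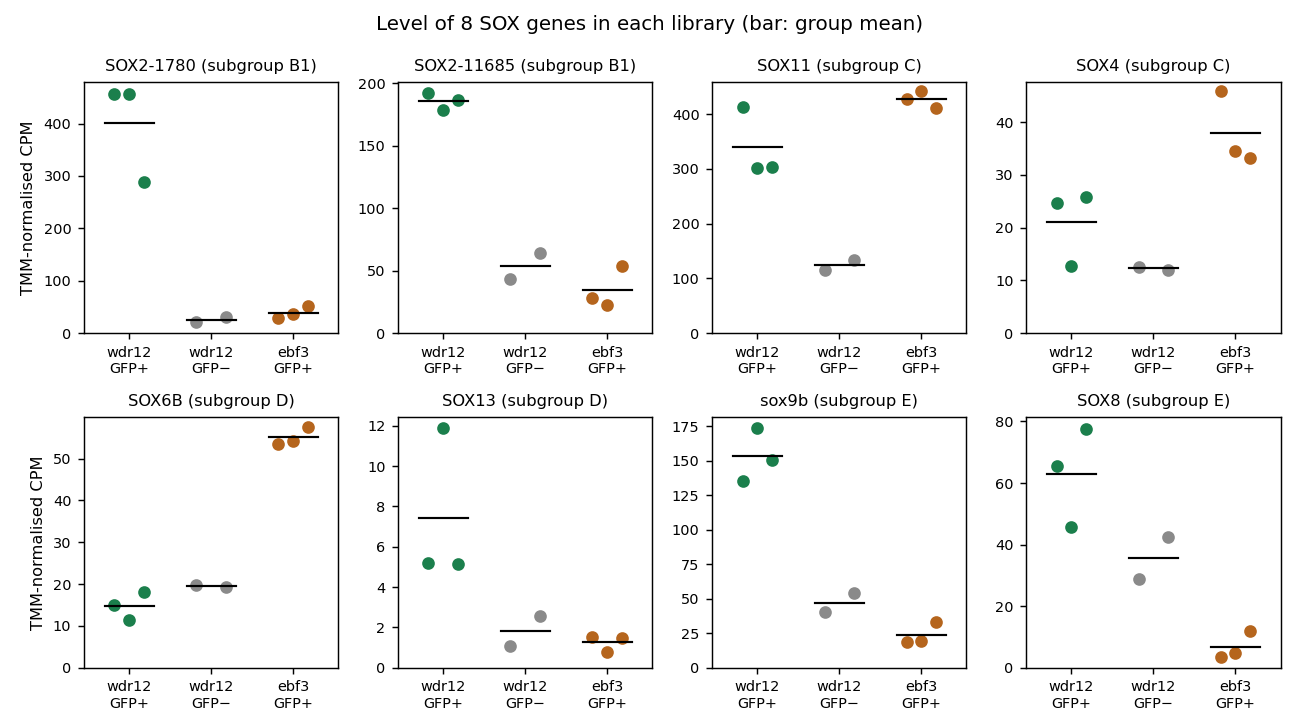
TMM-normalised CPM of each SOX gene (vertical axis, linear, from 0, with its own scale in each panel) in every library of the 3 groups; points are libraries and bars are group means. Both SOX2 genes, sox9b, SOX8 and SOX13 are highest in wdr12+ cells, while SOX11, SOX4 and SOX6B have their highest means in ebf3+ cells.

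SOX2-1780, of the SOXB1 subgroup, had 457, 457 and 288 CPM in wdr12+ replicates 1, 2 and 3. It had 21.1 and 30.4 CPM in the wdr12- libraries and 29.5, 36.3 and 51.4 CPM in the ebf3+ libraries. The lowest GFP-positive library of the wdr12 line was thus above every library of both controls, and the controls overlapped each other. Its mean of 400.6 ± 97.3 CPM (SD, n = 3) stood against 25.8 ± 6.57 (n = 2) in wdr12- and 39.1 ± 11.2 (n = 3) in ebf3+ cells. The log2 fold change was 3.96 ± 0.40 (SE; 95% interval 3.10 to 4.82; adjusted p = 5.31e-05) over wdr12- cells. Ordered from the highest fold change down, this was rank 140 of 15640. Over ebf3+ cells it was 3.36 ± 0.33 (2.66 to 4.06; adjusted p = 1.25e-05). Between the controls it was -0.60, with an interval from -1.34 to 0.15 and an adjusted p of 0.405.

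SOX2-11685, the gene paired with human SOX2, the factor that maintains neural and pluripotent stem cells, was less spread among wdr12+ libraries, at 192, 179 and 186 CPM. The wdr12- libraries held 43.1 and 64.2 CPM, and the ebf3+ libraries held 27.7, 22.7 and 53.8 CPM. All 3 GFP-positive libraries of the wdr12 line were again above all others, and ebf3+ replicate 3 lay inside the range of the wdr12- libraries. The group means were 185.7 ± 6.74, 53.65 ± 14.95 and 34.7 ± 16.7 CPM. It was higher in wdr12+ cells than in wdr12- cells by a log2 fold change of 1.79 ± 0.38 (0.97 to 2.60; adjusted p = 0.00388) and than in ebf3+ cells by 2.42 ± 0.34 (1.70 to 3.14; adjusted p = 0.000107). Leaving out wdr12- replicate 1 ended the former call (adjusted p = 0.0819). Between the controls the value was 0.63 (-0.13 to 1.40; adjusted p = 0.385). In the same direction as these genes, all 21 proliferation markers were higher in wdr12+ cells than in each control, while of the 11 radial glia markers 0 were higher than in wdr12- cells and 8 were higher than in ebf3+ cells, and 2, ndrg2 and glulc, were lower than in each control. Their part in the levels of the SOX2 genes was not tested.

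The SOXB1 genes differed from each other in how far they stood apart. The ratio of SOX2-1780 to SOX2-11685 counts, which needs no scaling between libraries, was 2.38, 2.56 and 1.55 in wdr12+ libraries. It was 0.490 and 0.473 in wdr12- libraries and 1.07, 1.59 and 0.957 in ebf3+ libraries. The ratio was therefore lowest in wdr12- cells, with no overlap, whereas wdr12+ and ebf3+ libraries overlapped. Ratios between members were chosen after their values were seen and carry no test, and the ratio of a pair of genes is not a ratio of transcripts, because gene lengths were not used. Reads of 50 bases from the conserved HMG box could be shared between close relatives, and how such reads were counted is not given in the sources used here.

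SOX11, a SOXC factor of newly formed neurons, followed another order. Its level was 414, 302 and 304 CPM in wdr12+, 115 and 133 in wdr12- and 428, 442 and 411 in ebf3+ libraries. The wdr12- libraries were the lowest, and the 2 GFP-positive groups overlapped. The means were 339.8 ± 64.0, 124 ± 13.3 and 427 ± 15.2 CPM. SOX11 was higher in wdr12+ than in wdr12- cells (log2 fold change 1.45 ± 0.30, 0.81 to 2.10; adjusted p = 0.00335) and lower in wdr12- than in ebf3+ cells (-1.78 ± 0.31, -2.44 to -1.12; adjusted p = 0.00427). Both calls depended on the few wdr12- libraries: the first had an adjusted p of 0.0658 without replicate 1, and the second one of 0.086 without replicate 1 and 0.0585 without replicate 2. Between wdr12+ and ebf3+ cells the difference was -0.33 (-0.88 to 0.22, adjusted p = 0.432). The interval holds no difference beyond 0.88 on the log2 scale in either direction, but it does not show that the levels are equal.

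SOX4, the other SOXC member, had 24.6, 12.8 and 25.7 CPM in wdr12+, 12.6 and 12.0 in wdr12- and 45.9, 34.6 and 33.1 in ebf3+ libraries. The 3 groups did not overlap, although wdr12+ replicate 2 lay just above the wdr12- libraries. SOX4 passed the test only between the controls, where it was lower in wdr12- cells (-1.62 ± 0.41, -2.49 to -0.75; adjusted p = 0.032). That call was lost without either wdr12- library (adjusted p = 0.255 and 0.257) and without ebf3+ replicate 1 or 2 (0.132 and 0.0762). wdr12+ cells stood at 0.77 ± 0.40 over wdr12- cells (adjusted p = 0.212) and at -0.85 ± 0.34 against ebf3+ cells (adjusted p = 0.0918). Both SOXC genes thus had their highest mean in ebf3+ cells and their lowest in wdr12- cells. Of the 19 neuronal markers, most of them genes of mature neurons, 18 were lower in wdr12+ than in wdr12- cells, and between the controls 3 were higher and 1 lower in wdr12- cells. The 1 lower gene was elavl3, an RNA-binding protein of early neurons, which had the same order of means as the SOXC genes, at 1692 ± 535, 1209 ± 98.2 and 3025 ± 586 CPM in wdr12+, wdr12- and ebf3+ cells (-1.32 ± 0.35 between the controls, adjusted p = 0.0413). That call was also lost without either wdr12- library and without ebf3+ replicate 1 or 2 (adjusted p up to 0.342).

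SOX6B, a SOXD factor known for its part in neuronal and glial differentiation in mouse, was the member that was highest in ebf3+ cells by both comparisons. It had 14.95, 11.4 and 18.01 CPM in wdr12+, 19.8 and 19.4 in wdr12- and 53.5, 54.2 and 57.6 in ebf3+ libraries. Every ebf3+ library exceeded every library of the wdr12 line. The means were 14.8 ± 3.30, 19.6 ± 0.278 and 55.1 ± 2.21 CPM. SOX6B was lower in wdr12+ cells (-1.90 ± 0.30, -2.54 to -1.25; adjusted p = 0.000314) and in wdr12- cells (-1.49 ± 0.35, -2.23 to -0.75; adjusted p = 0.022) than in ebf3+ cells. The second call was lost without either wdr12- library (adjusted p = 0.215 both times) and without ebf3+ replicate 1 or 2 (0.0743 and 0.0694). Within the wdr12 line the difference was -0.41 (-1.12 to 0.31; adjusted p = 0.481), although the libraries did not overlap.

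SOX13, the other SOXD member and an antagonist of Wnt-dependent transcription in mouse, was the least counted of the 8. Its raw counts were 48, 103 and 40 in wdr12+, 5 and 15 in wdr12- and 11, 6 and 9 in ebf3+ libraries. In CPM these were 5.20, 11.9 and 5.15, then 1.09 and 2.58, then 1.52, 0.803 and 1.498. The wdr12+ libraries were all higher than the others, with replicate 2 at more than the sum of the remaining pair. The log2 fold change over ebf3+ cells was 2.53 ± 0.79 (0.84 to 4.22; adjusted p = 0.0296). This call was lost without wdr12+ replicate 2 (1.97, adjusted p = 0.206) and without ebf3+ replicate 1 (adjusted p = 0.0594) or 2 (0.107). Over wdr12- cells the value was 1.99, and its interval of 0.07 to 3.92 was the widest of the members in that comparison (adjusted p = 0.146). Within the SOXD subgroup the count ratio of SOX13 to SOX6B was 0.286 to 1.04 in wdr12+, 0.0550 to 0.133 in wdr12- and 0.0148 to 0.0284 in ebf3+ libraries. These ranges did not overlap.

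The SOXE gene sox9b, whose human counterpart SOX9 is a factor of neural stem cells, radial glia and cartilage, had 135, 174 and 150 CPM in wdr12+ libraries. It had 40.3 and 53.9 CPM in wdr12- and 18.6, 19.7 and 33.5 CPM in ebf3+ libraries. The 3 groups did not overlap, with the neuroepithelial sort highest and ebf3+ cells lowest. The means were 153 ± 19.5, 47.1 ± 9.67 and 23.9 ± 8.29 CPM. It was higher in wdr12+ than in wdr12- cells by a log2 fold change of 1.70 ± 0.35 (0.96 to 2.44; adjusted p = 0.00288). Leaving out wdr12- replicate 1 ended this call (adjusted p = 0.0646). Over ebf3+ cells the change was 2.68 ± 0.31 (2.02 to 3.34; adjusted p = 2.91e-05). Between the controls it was 0.98 ± 0.33 (0.28 to 1.68; adjusted p = 0.102), and this passed without ebf3+ replicate 3 (1.30, adjusted p = 0.033).

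SOX8, which acts with SOX9 and SOX10 in oligodendrocyte development in mouse, had 65.5, 45.8 and 77.7 CPM in wdr12+ and 28.9 and 42.6 CPM in wdr12- libraries. In ebf3+ libraries it fell to 3.45, 4.68 and 12.0 CPM, the lowest values of the gene in any library. SOX8 was higher than in ebf3+ cells both in wdr12+ cells (3.24 ± 0.45, 2.29 to 4.19; adjusted p = 9.42e-05) and in wdr12- cells (2.43 ± 0.47, 1.44 to 3.42; adjusted p = 0.0071). The second call was lost without wdr12- replicate 2 (adjusted p = 0.0949). Within the wdr12 line the value was 0.81 (-0.17 to 1.79; adjusted p = 0.261). The count ratio of sox9b to SOX8 was 1.27 to 1.39 in wdr12- libraries, below its range in wdr12+ (1.93 to 3.79) and ebf3+ libraries (2.79 to 5.40), which overlapped.

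Glial markers moved with the SOXE genes in part. The 11 oligodendrocyte markers summed to 873 to 1455 CPM in wdr12+, 3181 to 4606 in wdr12- and 210.6 to 824.3 in ebf3+ libraries, with at most 1 of the 11 at 0 in a library. The 11 markers of radial glia and astroglia summed to 6699 to 14880, 8981 to 9428 and 3205 to 3336 CPM, with none at 0. Like SOX8 and sox9b, both sums were lowest in ebf3+ cells, but the oligodendrocyte sum was highest in wdr12- cells, where neither SOXE gene was. In wdr12- cells that sum came mostly from plp1b and mbpa, with means of 2588 and 1031 CPM. Gene by gene, 2 of the 11 oligodendrocyte markers were higher in wdr12+ than in wdr12- cells, 2 were lower and 7 did not pass. The ebf3+ library with the most oligodendrocyte and microglia counts, replicate 3, also had the highest values of SOX8, sox9b, SOX2-11685 and SOX2-1780 of its group. It also held the most CPM of proliferation markers (840.3 against 676.8 and 703.8) and of fibroblast markers (44.44 against 15.16 and 20.6). Its neuronal markers were the lowest, at 5172 against 6218 and 6701 CPM. The sum of its radial glia markers lay between the others (3274 against 3336 and 3205). That sum was mostly FABP7, with a mean of 2084 ± 473 CPM in ebf3+ cells, so it says little on the other radial glia markers. Without replicate 3, the log2 fold change of wdr12+ over ebf3+ cells was 3.95 for SOX8, 3.004 for sox9b, 2.88 for SOX2-11685 and 3.61 for SOX2-1780. Each was larger than with it, which follows from leaving out the highest ebf3+ library and is no separate evidence. The part of any of these cell types in the SOX levels was not tested.

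**Figure D2:**
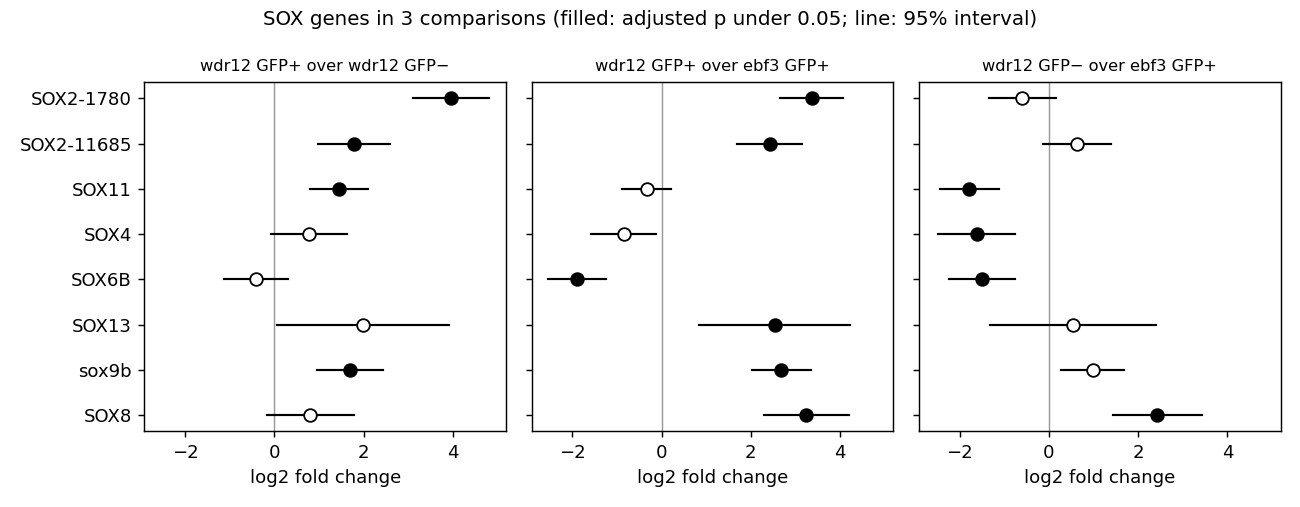
Log2 fold change of each SOX gene (horizontal axis) in the 3 comparisons, with lines for the 95% interval and filled points for an adjusted p under 0.05 in edgeR's quasi-likelihood test. SOX2-1780 stands at 3.96 and 3.36 over wdr12- and ebf3+ cells, and SOX6B is the single gene that is lower in wdr12+ than in ebf3+ cells at that threshold (-1.90).

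Seen across the family, 6 members passed the test in 2 of the 3 comparisons, and SOX4 and SOX13 passed in 1. Members carry names only because the authors listed them as changed, so passing at least 1 comparison was close to built in. The share of other genes that passed as often was not computed. The 6 that passed in 2 comparisons fell into 4 patterns by which groups passed the test against which. In each of them except SOX2-1780, at least 1 call was lost in a fit that left out 1 library, so the patterns are not firm. In SOX2-1780, SOX2-11685 and sox9b, wdr12+ cells were higher than both controls, and the controls did not differ from each other at the threshold. For sox9b, however, the control libraries did not overlap (0.98 ± 0.33), and this difference passed without ebf3+ replicate 3 and with DESeq2. In SOX6B, ebf3+ cells were higher than both groups of the wdr12 line. In SOX11, both GFP-positive groups were higher than wdr12- cells, and in SOX8, both groups of the wdr12 line were higher than ebf3+ cells. For SOX6B and SOX8 the split is also that between the reporter lines, so line and cell type cannot be told apart. Libraries of wdr12+ cells did not overlap those of wdr12- cells in any of the 8 genes, 7 above and 1 below. This was so for 49.8% of all genes tested and 85.2% of named genes, so most named genes shared it. Against ebf3+ cells 5 members had all wdr12+ libraries above and 2 all below, where 37.8% of all genes and 78.2% of named genes did not overlap. Between the controls wdr12- libraries lay above in 2 members and below in 3, where 41.4% of all genes and 66.3% of named genes did not overlap.

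The balance of SOXB1 to SOXC counts within a library was also compared. SOX2-1780 had 1.11, 1.51 and 0.948 counts for each SOX11 count in wdr12+ libraries, 0.184 and 0.228 in wdr12- and 0.0690, 0.0821 and 0.125 in ebf3+ libraries. These 3 ranges did not overlap. For SOX2-11685 the ratio to SOX11 was 0.465 to 0.613, 0.376 to 0.481 and 0.0515 to 0.131 in the same order, so the groups of the wdr12 line overlapped while ebf3+ libraries lay below both. SOX2-11685 and SOX11 were thus both lower in wdr12- than in wdr12+ cells, by 1.79 and 1.45 on the log2 scale. Within the SOXC subgroup, SOX11 had 11.8 to 23.6 counts per SOX4 count in wdr12+, 9.09 to 11.1 in wdr12- and 9.32 to 12.8 in ebf3+ libraries.

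**Figure D3:**
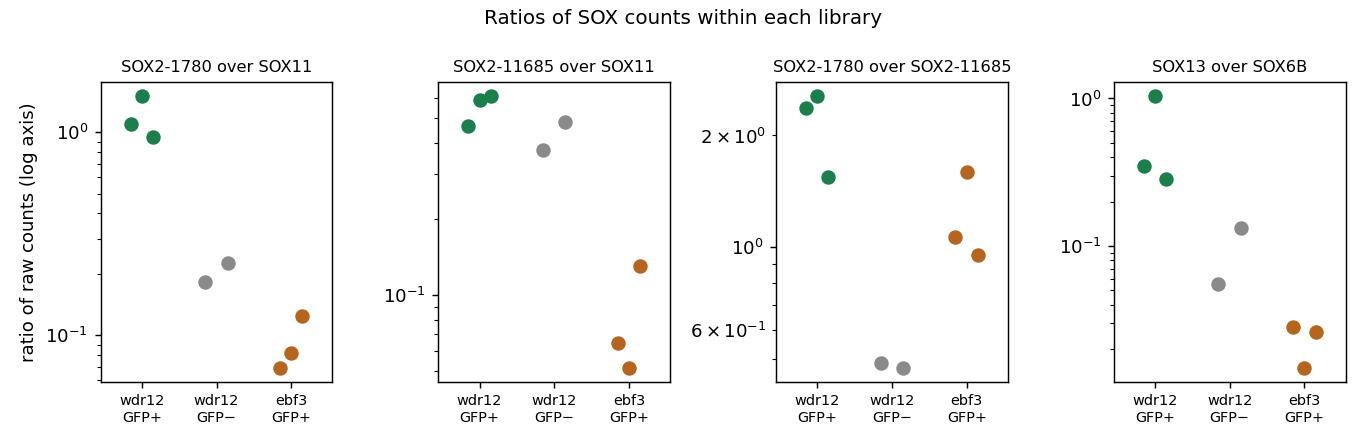
Ratio of raw counts of pairs of SOX genes within each library (vertical axis, log scale); points are libraries, and no scaling between libraries enters. The ratio of SOX2-1780 to SOX11 separates the 3 groups without overlap, from 0.0690 in the lowest ebf3+ library to 1.51 in the highest wdr12+ library.

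Genes whose levels ran most closely with a member were sought among genes with a name and a mean of at least 10 CPM, by Pearson r of log2(CPM + 1) over the 8 libraries. Such r values mostly follow the 3 groups and are given without a test. The closest to SOX11 were cdk2ap2 (r = 0.986), pou3f1 (0.984), pou3f3b (0.984), smarcc1b (0.979) and rtca (0.978). Of these pou3f1 and pou3f3b encode POU proteins, the class of partner factors named above, and smarcc1b encodes a subunit of the SWI/SNF chromatin remodeller. Closest to SOX6B were lhx9 (0.993), pbx3a (0.990), nrp1a (0.988), ebf3 (0.988) and morf4l1 (0.987), and ebf3 is the gene after which the reporter line of that group is named. Closest to SOX2-1780, a member added to this comparison after its values were seen, were id1 (0.996), rpa1 (0.996), pcna (0.995), zgc:110540 (0.993) and zgc:174160 (0.993). The first of these encodes an inhibitor of proneural factors, and rpa1 and pcna encode proteins of DNA replication.

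Genes counted as acting with or downstream of SOX proteins were taken from 5 lists drawn up here, all read in genes that the sheets name. Their counts stand beside shares of 29.9% higher and 30.7% lower for named genes within the wdr12 line, 37.9% and 31.8% over ebf3+ cells, and 9.27% and 6.18% between the controls. Of 22 partner factors and cofactors, 12 were higher and 1 lower in wdr12+ than in wdr12- cells, with a median log2 fold change of 1.13. The 3 with the smallest adjusted p were gli2b, a Hedgehog pathway factor (2.87 ± 0.36, adjusted p = 0.000102), pou3f2b (1.92 ± 0.31, adjusted p = 0.0006) and POU3F4 (1.67 ± 0.33, adjusted p = 0.00224). The 1 lower gene was pou4f2, a POU factor of retinal ganglion cells in mouse, at 173 CPM against 481.5, and at 2311 CPM in ebf3+ cells. Over ebf3+ cells 8 of the 22 were higher and 8 lower, and between the controls 1 was higher and 9 lower in wdr12- cells. The 9 became 2 without wdr12- replicate 1, 3 without wdr12- replicate 2 and 5 without ebf3+ replicate 1 or 2, and the 8 higher over ebf3+ cells became 5 without wdr12+ replicate 1 or ebf3+ replicate 2. Of the POU3 genes, pou3f2b had means of 165 ± 36.5, 43.8 ± 2.49 and 166 ± 9.13 CPM, and pou3f1 435 ± 147, 161 ± 32.3 and 634 ± 53.8 CPM, in wdr12+, wdr12- and ebf3+ cells. POU3F4 averaged 137, 42.8 and 71.8 CPM in the same order and was higher in wdr12+ than in ebf3+ cells (0.93 ± 0.28, adjusted p = 0.0235), a call lost without wdr12+ replicate 1 or 2 or any 1 ebf3+ library (adjusted p up to 0.0921). The count of 12 fell to 2 without wdr12- replicate 1, where gli2b and pou3f2b stayed under the threshold (adjusted p = 0.00429 and 0.0181), and to 6 without replicate 2.

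Progenitor genes listed as targets of SOX2 or SOXB1 factors numbered 26. Of these, 18 were higher and 1 lower in wdr12+ than in wdr12- cells, with a median of 2.34. Those with the smallest adjusted p were the Notch receptor notch1a (4.39 ± 0.39, adjusted p = 3.8e-05), id1 (4.02 ± 0.41, adjusted p = 5.12e-05) and the Notch ligand dlb (3.99 ± 0.44, adjusted p = 6.62e-05). The lower gene was msi2a, which encodes an RNA-binding Musashi protein (-1.88 ± 0.42, adjusted p = 0.00547). Over ebf3+ cells 23 were higher and 2 lower, with a median of 2.56, and in that comparison the lower genes were msi2a (-1.51) and lhx2b (-1.81). Between the controls 2 were higher and 3 lower in wdr12- cells, and the median was 0.08. Without either wdr12- library, 1 was lower and 1 or 0 higher. The 18 became 12 without wdr12- replicate 1 and 10 without replicate 2. Of these 26 genes, 4 are also among the 11 radial glia markers.

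Neuronal genes listed as downstream of SOXC factors or held back by SOXB1 factors numbered 20. Of these, 11 were lower and 3 higher in wdr12+ than in wdr12- cells, with a median of -1.23. The lower ones included elavl2, a neuronal RNA-binding protein (-2.83 ± 0.34, adjusted p = 8.82e-05), and map2, a dendritic microtubule protein (-2.81 ± 0.42, adjusted p = 0.000292). The higher ones were neurod4, a proneural factor (3.65 ± 0.42, adjusted p = 7.18e-05), coe2, an EBF factor (2.04 ± 0.36, adjusted p = 0.000978), and myt1b, a zinc finger factor (1.40 ± 0.32, adjusted p = 0.00628), all transcription factors and not structural genes. Against ebf3+ cells 15 were lower and 1, neurod4, was higher (1.45 ± 0.32, adjusted p = 0.00316). Between the controls 9 were lower and 0 higher in wdr12- cells, with a median of -0.78. The 11 became 8 without wdr12- replicate 1 and 5 without replicate 2, and the 9 became 4 and 5. Of the 20, 7 are also among the neuronal markers, and 2, ebf3 and coe2, belong to the EBF family. ebf3, whose reporter was used to sort the ebf3+ cells, is among the 15 (-2.64 ± 0.33) and among the 9 (-1.94 ± 0.37). Its place in these counts follows from the sort and is no evidence. SOX11 was higher in wdr12+ than in wdr12- cells (1.45), opposite to the list median of -1.23, and SOX4 did not pass there. Whether the listed genes follow the SOX levels was not tested.

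The 14 genes of oligodendrocytes and neural crest tied to SOXE factors followed SOX8 against ebf3+ cells, where 12 were higher and 0 lower in wdr12+ cells (median 2.41). Between the controls 8 were higher and 1 lower in wdr12- cells (median 2.73), a count that fell to 2 higher without wdr12- replicate 1 and 4 without replicate 2, and to 5 with DESeq2 or without ebf3+ replicate 1 or 2. Without ebf3+ replicate 2 the 12 became 8. Being higher over ebf3+ cells was not particular to this list. In that comparison 10 of 11 microglia markers were higher and 0 lower, and 5 and 0 of 5 fibroblast markers. For endothelial and mural markers it was 6 and 1 of 7, for radial glia markers 8 and 2 of 11, and for erythrocyte markers 0 and 0 of 10. Within the wdr12 line 2 of the 14 listed genes were higher and 2 lower. The higher genes were cnp, an enzyme of myelinating cells (3.01 ± 0.35, adjusted p = 7.18e-05), and si:ch73-194h10.4, which the sheets also name gpr17, a receptor of oligodendrocyte precursors in mouse (2.65 ± 0.46, adjusted p = 0.000889). The lower genes were the myelin genes plp1b (-2.81 ± 0.81, adjusted p = 0.0222) and mbpa (-2.38 ± 0.69, adjusted p = 0.0234). Both lost the call without wdr12- replicate 1 and without wdr12+ replicate 1 or 2, and mbpa also without wdr12- replicate 2 (adjusted p = 0.135, its highest) and with DESeq2, which gave plp1b no adjusted p. All 11 oligodendrocyte markers are in this list, so it is no separate evidence beside them. Of the 6 endothelial genes tied to SOXF factors, of which the members hold none, 2 were higher and 2 lower within the wdr12 line. They included cldn5a, a tight junction gene (4.14 ± 0.51, adjusted p = 9.79e-05), cdh5, the endothelial cadherin (-2.60 ± 0.47, adjusted p = 0.00116), and the Notch ligand DLL4 (1 of 2) (2.28 ± 0.51, adjusted p = 0.00531).

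**Figure D4:**
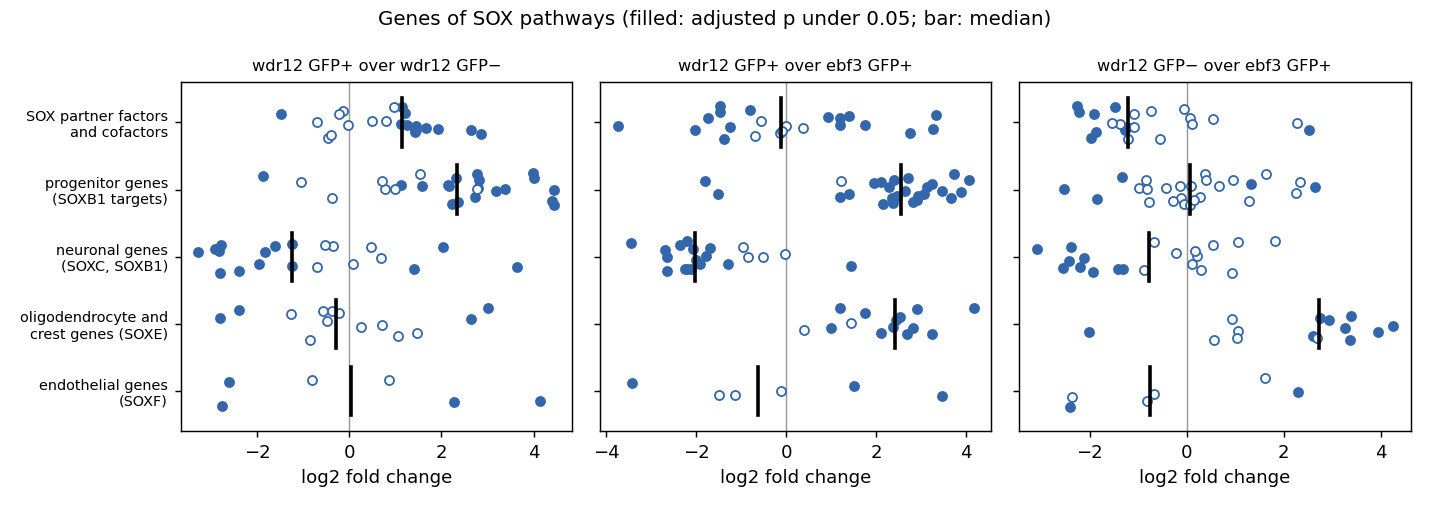
Log2 fold change of the genes of 5 SOX-related lists (horizontal axis) in the 3 comparisons; each point is a gene, filled at an adjusted p under 0.05, and bars are list medians. Progenitor genes lie mostly to the right in both comparisons of wdr12+ cells (medians 2.34 and 2.56), neuronal genes mostly to the left (-1.23 and -2.03).

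In the authors' deposited tables of the same comparisons, 4, 6 and 4 members had an adjusted p under 0.05, in the order of the comparisons above, and all 8 calls of each comparison were the same as in the fit given here. The tables rest on the same counts, so this compares methods and not samples. Members carry names because the authors listed them as changed, so some of the agreement was built in. The share of equal calls over all genes was not computed.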

How the data were processed

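Reads of 50 bases were sequenced from one end. Per the submitters' processing notes, CASAVA 1.8.2, FastQC 0.10.1, TopHat2 and DESeq were used; counting program, strand setting, genome build and annotation: not given in the sources used here. Per the file headers, the deposited tables give each gene's raw read count in every library. The authors also deposited a log2 fold change, a p-value and an adjusted p-value for each comparison. Names and human pairings come from the authors' sheets, and RefSeq's gene table (assembly ASM223467v1) served only for names.

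The 3 count tables were joined on the Ensembl identifier: 131234 repeated cells were equal and 0 differed, 16957 genes had counts in all 8 libraries, and 185 of 17142 genes, present in 1 table only, were left out. Every gene total was at least 11. Groups came from the sample titles. One edgeR fit held all 3 groups: version 4.0.16 (R 4.3.3), with filterByExpr (15640 genes), TMM, quasi-likelihood F test, two-sided, without a block, adjusted over all genes by the Benjamini-Hochberg method. The biological coefficient of variation, common to all genes, came to 0.514. The SE is the log2 fold change over the square root of F, and intervals use the t distribution with the moderated degrees of freedom. The fit was tested on simulated data. Within the wdr12 line it called 63% of 100 genes given a 4-fold change and 2% of 100 given a 2-fold change, over ebf3+ cells 92% and 7%, and for the third comparison 76% and 5% (14807, 14844 and 14872 genes in step). Of the genes left unchanged, 1, 9 and 2 were called in the same order. The changed genes were drawn only from well-counted genes, so these shares do not describe weakly counted ones such as SOX13. Far fewer genes changed in the simulation than passed in the data, so an adjusted p under 0.05 was harder to reach there. The shares are therefore not the power of the fit on the data. DESeq2 1.42.0 was an alternative.

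All members are named; from each list up to 3 genes with the smallest adjusted p within the wdr12 line are named, and others named were chosen after their values were seen. Members, lists and this rule were chosen with earlier results of these data known. Likeness used 5 genes per member. Python 3.11.15, pandas 2.3.3, numpy 2.4.6, scipy 1.17.1 and matplotlib 3.10.9 were used.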

Additional observations from a re-analysis of the deposited data

How the results depend on the processing

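Each value was recomputed under 14 other settings. Of 335 recomputed log2 fold changes of single members, 314 kept their direction and their side of the threshold, 18 lost the call, 2 gained one and 1, SOX13 between the controls, changed sign without wdr12- replicate 2 (-0.22, adjusted p = 0.991, never called). SOX2-1780 kept both its calls, and SOX2-11685, SOX6B, sox9b and SOX8 theirs over ebf3+ cells, in all 14. sox9b passed between the controls with DESeq2 (1.01, adjusted p = 0.0479). Leaving out 1 library at a time, 1 to 4 members passed within the wdr12 line, 5 to 6 over ebf3+ cells and 0 to 5 between the controls. The corresponding counts over all genes, 3090, 3671 and 801, ran from 1448 to 3375, 2845 to 3631 and 169 to 1329. The lowest within the wdr12 line came without wdr12- replicate 1 (1 member, SOX2-1780), and between the controls without replicate 2 (0 members). Where 1 wdr12- library was left, it was assumed to vary like the other groups. Between the controls, DESeq2 called 1494 of all genes and a fit of those groups alone 1605, in which SOX13 was filtered out. With a replicate block, 4, 5 and 4 members passed, the call of SOX13 over ebf3+ cells being lost (2.38, adjusted p = 0.0689), and 3121, 3757 and 1192 of all genes. Deviations from the group mean correlated at r from -0.223 to 0.221 between same-numbered libraries. This cannot show whether the numbers pair the samples, because deviations of the 2 wdr12- libraries mirror each other by construction. The median of all genes moved to 0.16 without wdr12- replicate 1 within the wdr12 line and to 0.14 with the block between the controls. List counts under these settings were added after the data were seen, and the cause of the changes was not tested. SOX13 had 191, 20 and 26 counts in sum over the groups.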
